A study of Mus musculus with 34 samples.

Results

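The respiratory chain genes of the nucleus were followed in mouse liver samples carrying beta-catenin isoforms. Members were the rows of the normalized count table whose symbol starts with Nduf, Sdha, Sdhb, Sdhc, Sdhd, Uqcr, Cyc1, Cox4i, Cox5, Cox6, Cox7, Cox8 or Atp5 and whose mean over the 18 libraries was at least 10. Of 92 rows with these starts, 73 passed, among 6592 genes that passed in a table of 14086. They were 29 subunit genes of complex I, 4 of complex II, 9 of complex III, 12 of complex IV and 16 of complex V (ATP synthase), with the assembly factors Ndufaf7 and Sdhaf2 and the pseudogene Ndufs5-ps counted apart. Ndufa4, named for complex I, was placed in complex IV, where its product is known to sit. Just under the mean of 10 lay Atp5k (9.86), Ndufaf4 (9.61) and Ndufb10 (9.39), and just above it Sdhaf2 (10.3), Atp5mpl (10.9) and Ndufaf7 (11.2). A second table held z-scores, which are values of 1 gene centred and scaled over libraries, for 53 rows with the same starts, of which 51 were members.

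Normalized counts covered wild type liver (2 libraries), liver with the beta-catenin skip 1 isoform alone (3), liver with the skip 2 isoform alone (2), and samples described as skip 1 induced (5), skip 2 induced (2) and ΔN90-β-catenin induced (4), the last written dN90 below. The skip isoforms lack an exon after CRISPR editing, and ΔN90-β-catenin is a form without its N-terminal part. Z-scores of the subtypes covered subtype A (4), subtype B (9) and a control with YAPS127A, an active mutant of YAP, and sgActin, a guide that targets actin (3). All samples, wild type included, carry the same protocol labels, which name hydrodynamic injection (fast tail-vein delivery of DNA to hepatocytes) and RNA taken from frozen tumours. No strain, age or tissue dissection is stated in the sources used here, and for the skip 2 samples 1 label field says skip 2 while another repeats skip 1.

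The respiratory chain sits in the inner mitochondrial membrane. Complex I takes electrons from NADH and complex II from succinate, both pass them over coenzyme Q to complex III, cytochrome c carries them to complex IV, and complex IV hands them to oxygen. Complexes I, III and IV pump protons, and complex V uses the returning protons to make ATP. Most subunits are encoded in the nucleus, and a few, not analysed here, in the mitochondrial genome. Hepatocytes are rich in mitochondria, and the promoters of many of these genes are known to hold sites of NRF1, of ETS-family factors such as GABP, of YY1 and of estrogen-related receptors.

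The sequences before the start sites of some of these genes show the motifs in place. RefSeq windows of 250 bases before to 50 bases after a start (GRCm38.p6) were matched for 59 of the 73 members. The letters GCGCA, any base and GCGC, known for NRF1, occurred on either strand in 13 of these 59 genes (22%), beside 12.4% of the 5228 genes with a mean of at least 10 and 5.19% of all 27025 genes of the window table. CCGGAAG, the core of ETS and GABP sites, occurred in 28.8% of members, 19.6% of kept genes and 9.93% of all genes. AAGATGGC, known for YY1, occurred in 15.3%, 5.66% and 3.19%, and TCAAGGTCA, known for estrogen-related receptors, in 3.39% (2 members), 0.23% and 0.466%. These motifs do not share letters in the stretches printed here. Of the 20 members whose normalized counts in all 11 induced libraries lay below all 7 others (described further on), 15 had a window and 4 a motif wholly before the start. Members on a chromosome left out of that motif search could be among the 15 but not among the 4. The 250 bases before the start are printed for the 3 of those 4 that have a single start in the RefSeq windows. Sdha, chosen after its motifs were seen, is printed as well. All are read 5′ to 3′ on the gene's own strand with motifs in capitals.
Sdha: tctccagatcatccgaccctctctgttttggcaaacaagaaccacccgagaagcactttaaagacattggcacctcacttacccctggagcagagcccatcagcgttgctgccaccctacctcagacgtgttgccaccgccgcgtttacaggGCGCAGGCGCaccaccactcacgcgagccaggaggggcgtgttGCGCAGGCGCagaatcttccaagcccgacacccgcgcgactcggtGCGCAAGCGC
Cox6a1: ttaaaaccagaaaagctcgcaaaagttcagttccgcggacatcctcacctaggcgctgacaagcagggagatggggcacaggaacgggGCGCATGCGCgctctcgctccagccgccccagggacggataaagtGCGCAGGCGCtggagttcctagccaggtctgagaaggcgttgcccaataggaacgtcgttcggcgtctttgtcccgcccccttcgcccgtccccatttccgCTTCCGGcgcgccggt
Cox6b1: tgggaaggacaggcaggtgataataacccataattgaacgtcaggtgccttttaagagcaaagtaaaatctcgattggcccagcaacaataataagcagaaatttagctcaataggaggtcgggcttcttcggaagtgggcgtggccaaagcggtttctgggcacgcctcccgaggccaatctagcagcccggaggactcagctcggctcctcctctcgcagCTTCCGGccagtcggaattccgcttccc
Atp5g3: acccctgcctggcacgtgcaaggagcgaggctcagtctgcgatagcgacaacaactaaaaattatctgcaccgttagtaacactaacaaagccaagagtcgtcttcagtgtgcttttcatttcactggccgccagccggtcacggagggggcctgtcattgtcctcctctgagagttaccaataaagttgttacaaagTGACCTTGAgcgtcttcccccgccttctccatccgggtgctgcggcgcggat
The Sdha stretch (minus strand, chr13:74350241-74350490) held the NRF1 letters 3 times. The Cox6a1 stretch (minus strand, chr5:115348959-115349208) held them at 2 places and the ETS letters at 1, on the opposite strand. Cox6b1 (minus strand, chr7:30626115-30626364) held the ETS letters once, and Atp5g3 (minus strand, chr2:73911327-73911576) the estrogen-related receptor letters once, both on the opposite strand. The mm10 gene annotation places Atp5g3 at chromosome 2, 73908447 to 73912464. The Atp5g3 stretch therefore lies before the RefSeq start used here but inside the gene as annotated there. A match of letters describes the window and shows no binding.

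Estimated reads per library ranged from 361772 to 933146, and a member had a median of 17 to 59 estimated reads in a library, so single members near the threshold carry large counting error. Normalized counts summed to 610688 to 694773 in the 7 libraries that were not induced and to 415528 to 524243 in the 11 induced ones. The 10 hepatocyte markers, among them Alb and Apob, summed to 65504 to 89839 in the libraries that were not induced and to 23134 to 61608 in the induced ones, and 5, 3 and 4 of them were called lower (defined below) in skip1, skip2 and dN90 induced libraries against their controls. As a share of a library's total these markers made up 10.5 to 14.4% in the libraries that were not induced. In the induced ones they made up 5.57 to 11.8%, and these ranges overlap. Within like groups the shares did not overlap, at 12.7 to 14.4% in skip1 alone and 5.57 to 11.8% in skip1 induced libraries. They were 12.47 and 12.49% in skip2 alone and 11.26 and 11.45% in skip2 induced libraries. Wild type libraries held 10.48 and 10.73%, and dN90 induced ones 6.23 to 8.21%. In summed counts, first not induced and then induced, the 7 biliary markers went from 9.88 to 38.2 and from 162 to 801. The 10 macrophage markers went from 238 to 364 and from 319 to 671. The 8 stellate and fibroblast markers went from 149 to 237 and from 118 to 438, and the 9 endothelial markers from 262 to 317 and from 166 to 335. The 5 erythroid markers summed to 169 to 303 and to 30.7 to 246, with Hba-a2 and Hbb-bs at 0 in some groups, and Alas2, the erythroid heme synthesis enzyme, was called lower for skip1 (-1.33), skip2 (-3.00) and dN90 (-2.48). Epcam and Krt7 were at 0 in wild type, Epcam and Krt19 in skip1 alone and Krt19, Krt7 and Sox9 in skip2 alone libraries. The part of these cell type markers in the results below was not tested, and in bulk RNA fewer cells of a type and less RNA per cell cannot be told apart.

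Summed over the 73 members, normalized counts were 5398 and 5606 in wild type, 5099, 5064 and 5404 in skip1 alone, and 5035 and 5098 in skip2 alone libraries. They were 3266, 4106, 3294, 2748 and 2973 in skip1 induced, 2906 and 3098 in skip2 induced, and 3175, 2534, 2796 and 2793 in dN90 induced libraries. Every induced library lay below every library that was not induced, and skip1 induced replicate 2, which also had the highest hepatocyte marker sum of the induced libraries (61608), was the highest of them. As a share of all normalized counts of a library, however, the members made up 0.725 to 0.918% in the libraries that were not induced and 0.58 to 0.793% in the induced ones, and these ranges overlap. Set against their own controls the shares did not overlap. They were 0.804 to 0.83% in skip1 alone and 0.6255 to 0.793% in skip1 induced libraries. For skip2 they were 0.725 to 0.734% alone and 0.638 to 0.6775% induced. Wild type libraries held 0.849 to 0.918% and dN90 induced ones 0.58 to 0.702%. Complex V held the largest part, with a sum of 2337 ± 81.2 (SD, n = 2) in wild type against 1288 ± 140 (n = 4) in dN90 induced libraries. Complex I went from 1122 ± 72.8 to 577 ± 55.6, complex IV from 1013 ± 11.7 to 483 ± 69.5, complex III from 522 ± 20 to 233 ± 22.8 and complex II from 456 ± 30.7 to 212 ± 11.9 in the same groups.

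**Figure D1:**
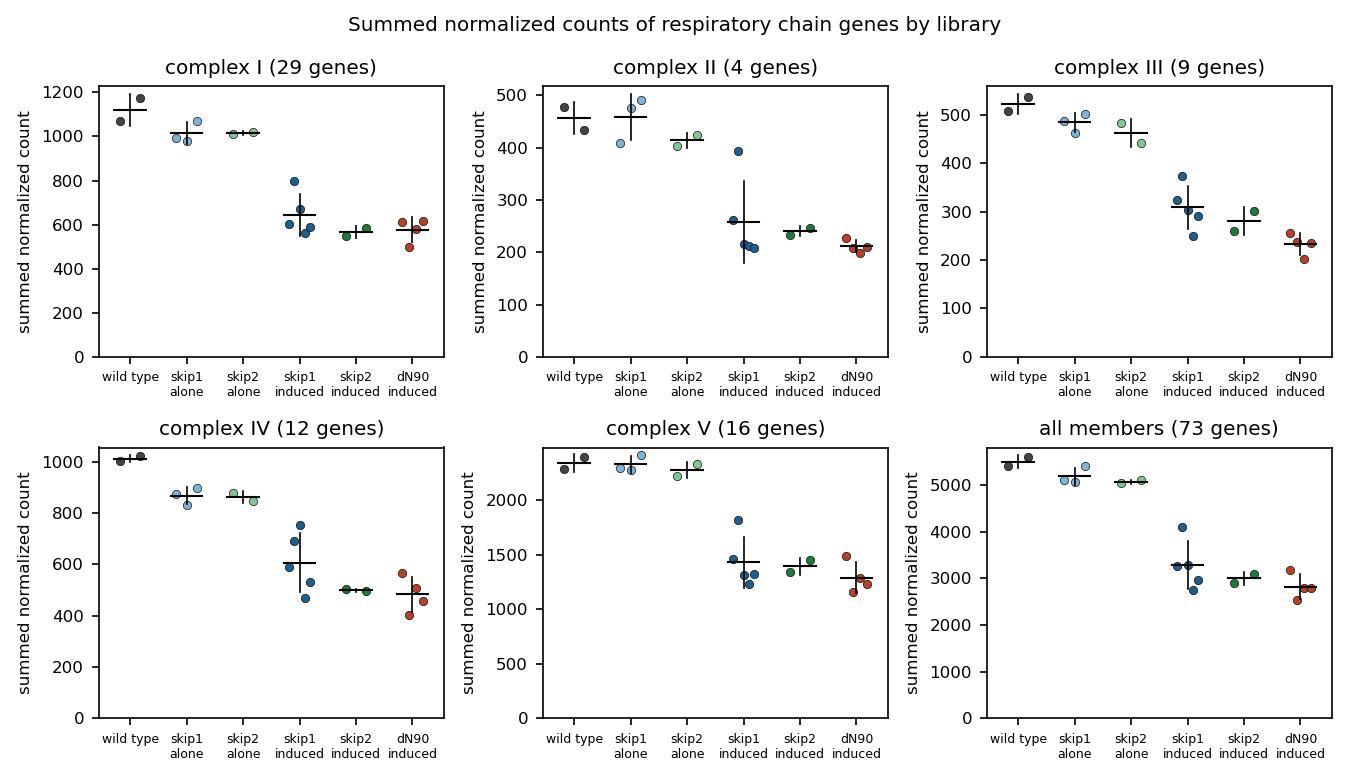
Summed normalized counts of the member genes in each library, in a panel for each complex and for all 73 members. Points are libraries, the horizontal line is the group mean and the vertical line ± 1 SD. In the panel of all members the induced libraries sit between 2534 and 4106 and the others between 5035 and 5606, while as shares of a library's total the 2 ranges overlap. Each induced group set against its own control does not overlap in share.

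Against its control, each kind of induced sample had lower normalized counts of many members and no member that was called higher. For skip1 and skip2 the control carried the same isoform alone. For dN90 it was wild type, as no libraries carried dN90 alone. A member was called where limma on log2(normalized count + 1) gave an adjusted p under 0.05, adjusted over the 6592 genes. In skip1 induced against skip1 alone, 24 of 73 members were called lower, where 14.7% of all genes were called in either direction and 8.18% lower. In skip2 induced against skip2 alone it was 15 of 73 (14.9% of all genes called, 8.42% lower), and in dN90 induced against wild type 53 of 73 (22.7% called, 12% lower). The median difference over members was -0.65, -0.82 and -1.06, and over all genes tested -0.02, -0.06 and 0.01. All 73 members had a negative difference with dN90, 68 with skip1 and 70 with skip2, and 66 were negative in all 3.

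Each of these counts moved when 1 control library was left out, which leaves groups of 2 with a lone library that is assumed to vary like the others. Without skip1 alone replicate 1, 2 or 3 the skip1 count was 14, 15 or 9. Leaving out wild type replicate 1 or 2 took the dN90 count to 26 or 24. Without skip2 alone replicate 1 or 2 the skip2 count was 5 or 6, and without skip2 induced replicate 1 or 2 it was 3 or 9.

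The scaling of the libraries moved them further. With every library brought to the same total of normalized counts, an alternative chosen after the totals had been seen, 2, 1 and 18 members were called lower for skip1, skip2 and dN90, where 2.93%, 3.43% and 5.83% of all genes were. That scaling raised the median of all genes to 0.43, 0.52 and 0.47 and the median of members to -0.19, -0.24 and -0.60. Relative to the median of all genes the members then lay at -0.62, -0.76 and -1.07, beside -0.63, -0.77 and -1.06 with the deposited scaling. Members with a negative difference numbered 53, 55 and 67 of 73 with equal totals. Atp5a1 and Atp5g1 were the members called for skip1 under both equal totals and voom on estimated reads, and Ndufb9 the member called for skip2.

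**Figure D2:**
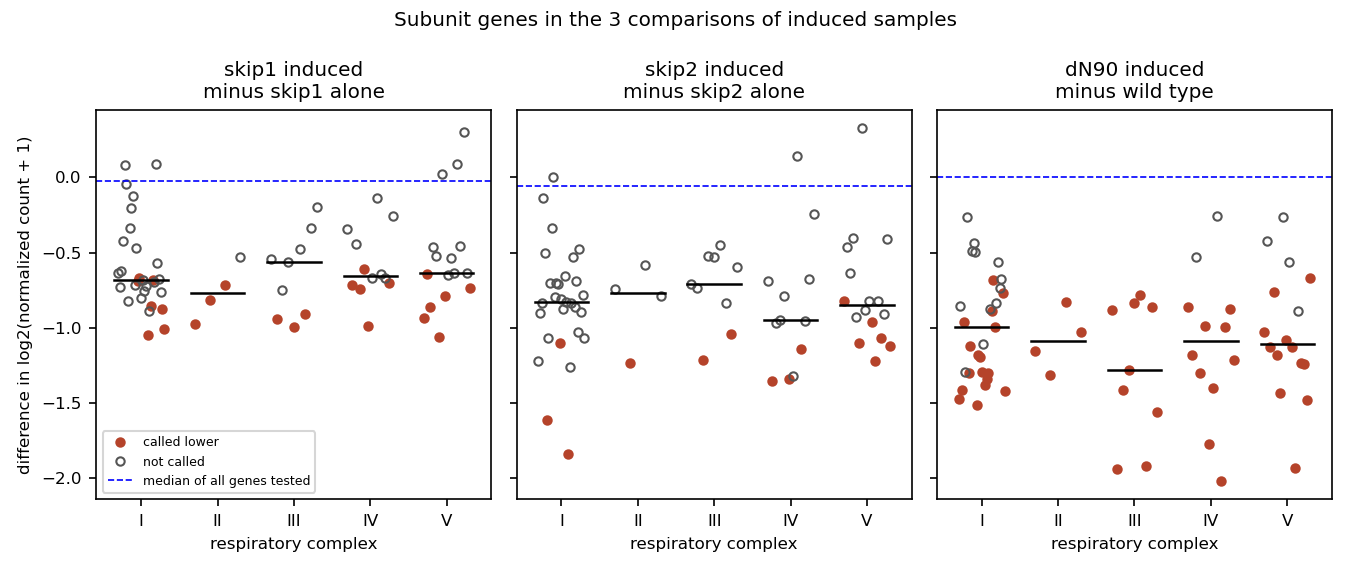
Difference in log2(normalized count + 1) of each of the 70 subunit genes, by complex, in the 3 comparisons of induced samples with their controls. Filled points were called lower, open points were not called, black lines are complex medians and the dashed line is the median of all genes tested. Nearly all points lie below the dashed line with the deposited scaling. With equal library totals 20, 18 and 6 of the 73 members have a difference above 0. The median of all genes is then 0.43, 0.52 and 0.47, and the member median lies at -0.62, -0.76 and -1.07 relative to it.

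Complex I is the entry point of NADH electrons. Of its 29 subunit genes, 7 were called lower in skip1, 3 in skip2 and 17 in dN90 induced libraries, with medians of -0.68, -0.83 and -0.99. Over all genes 8.18%, 8.42% and 12% were called lower, and the skip2 count of complex I was near that share. The same shares stand beside the counts of the other complexes below. Ndufb9, an accessory subunit of the membrane arm (chromosome 15, 58933801 to 58939516, in mm10 as all gene positions here), was called in all 3. Ndufb9 stood at 60.3 and 70.4 in wild type, 44.7, 47.5 and 49.8 in skip1 alone, 65.3 and 58.2 in skip2 alone, 17.5, 25.3, 43.4, 13.7 and 20.8 in skip1 induced, 13.99 and 19.4 in skip2 induced and 29.1, 23.3, 19.1 and 34.5 in dN90 induced libraries. The highest induced library, 43.4 in skip1 induced replicate 3, was just below the lowest of the others, 44.7. Its differences were -1.05 (SE 0.28, adjusted p = 0.0149) for skip1, -1.84 (SE 0.38, adjusted p = 0.00247) for skip2 and -1.30 (SE 0.33, adjusted p = 0.00677) for dN90.

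Ndufb3, another accessory subunit (chromosome 1, 58586397 to 58595964), was also called in all 3. Ndufb3 stood at 67.96 and 54.9 in wild type, 47.7, 42.6 and 54.3 in skip1 alone, 73.98 and 49.4 in skip2 alone, 29.1, 28.7, 39.9, 23.5 and 29.8 in skip1 induced, 37.7 and 20.3 in skip2 induced and 23.6, 27.5, 25.1 and 28.8 in dN90 induced libraries. Its induced libraries did not overlap the others, and its differences were -0.67 (SE 0.23, adjusted p = 0.0497), -1.10 (SE 0.31, adjusted p = 0.0191) and -1.19 (SE 0.27, adjusted p = 0.00261) for skip1, skip2 and dN90. The core subunits of the module that oxidises NADH had negative differences of unlike certainty. Ndufs1 stood at 83.9 and 83.3 in wild type, 97.04, 98.5 and 87.6 in skip1 alone, 80.9 and 98.6 in skip2 alone, 58.3, 76.6, 44.7, 48.1 and 38.4 in skip1 induced, 46.2 and 53.1 in skip2 induced and 49.4, 36.6, 39.3 and 56.6 in dN90 induced libraries. This gene, for the largest core subunit with iron-sulfur clusters, did not overlap between induced and other libraries and was called for skip1 (-0.85) and dN90 (-0.89) but not for skip2 (-0.84, SE 0.29, adjusted p = 0.0582). Ndufv2, an iron-sulfur core subunit, was likewise called for skip1 (-0.87) and dN90 (-0.77). For Ndufv1, the core subunit that binds FMN, none of the comparisons passed (-0.76, -0.90 and -0.68), and its wild type libraries spread from 51.0 to 101. The largest dN90 differences in complex I belonged to Ndufab1, the mitochondrial acyl carrier protein (-1.51, SE 0.44, adjusted p = 0.0154), Ndufa1 (-1.47, SE 0.37, adjusted p = 0.00619) and Ndufv3 (-1.42, SE 0.37, adjusted p = 0.00799). Ndufa3 was the third complex I member called for skip2 (-1.61, SE 0.43, adjusted p = 0.0133), while its skip1 difference was -0.04 and its dN90 difference -0.26. Ndufa8 was nearest to 0 for skip2, at 0.00127 (SE 0.38).

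Complex II, succinate dehydrogenase, also belongs to the citric acid cycle. All 4 of its subunit genes were called lower in dN90 induced libraries, 3 in skip1 and 1, Sdhb, in skip2, with medians of -1.09, -0.77 and -0.76 in that order. Sdhb stood at 72.5 and 74.01 in wild type, 64.2, 56.4 and 36.3 in skip1 alone, 60.2 and 61.8 in skip2 alone, 25.8, 44.4, 20.4, 29.8 and 26.6 in skip1 induced, 25.3 and 25.6 in skip2 induced and 29.9, 29.4, 25.1 and 31.8 in dN90 induced libraries. Sdhb (chromosome 4, 140961271 to 140979198) encodes the iron-sulfur subunit, and its skip1 alone replicate 3 at 36.3 lay below skip1 induced replicate 2 at 44.4, the only libraries where induced and other samples crossed. Its differences were -0.82 (SE 0.23, adjusted p = 0.0204), -1.23 (SE 0.31, adjusted p = 0.0107) and -1.31 (SE 0.27, adjusted p = 0.00139) for skip1, skip2 and dN90. Sdha stood at 254 and 246 in wild type, 204, 289 and 307 in skip1 alone, 218 and 249 in skip2 alone, 154, 220.2, 102, 110.1 and 109.7 in skip1 induced, 135 and 144 in skip2 induced and 122, 120.4, 107 and 99.3 in dN90 induced libraries. Sdha, the flavoprotein subunit whose promoter stretch is printed above, differed by -0.97 (SE 0.22, adjusted p = 0.00555) with skip1 and -1.15 (SE 0.27, adjusted p = 0.00308) with dN90, and by -0.74 (SE 0.31, adjusted p = 0.113) with skip2, where it did not pass. Sdhc and Sdhd, the membrane anchors, differed by -0.72 (called) and -0.53 with skip1 and by -0.83 and -1.03 with dN90, both called.

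Complex III passes electrons from coenzyme Q to cytochrome c. All 9 genes were called lower in dN90 induced libraries (median -1.28), 3 in skip1 (-0.56) and 2 in skip2 (-0.71). Uqcrfs1 stood at 83.8 and 96.4 in wild type, 72.3, 72.5 and 79.9 in skip1 alone, 71.7 and 68.7 in skip2 alone, 47.3, 51.8, 38.1, 27.98 and 36.2 in skip1 induced, 35.4 and 42.9 in skip2 induced and 30.7, 25.5, 13.8 and 25.8 in dN90 induced libraries. Uqcrfs1 (chromosome 13, 30540312 to 30545316), the Rieske iron-sulfur protein, kept the widest gap between induced and other libraries among complex III genes, 51.8 against 68.7. It differed by -1.92 (SE 0.28, adjusted p = 3.77e-05) with dN90, by -0.91 (SE 0.24, adjusted p = 0.0129) with skip1 and by -0.83 (SE 0.32, adjusted p = 0.0905) with skip2. Uqcrc1, a core protein (chromosome 9, 108936648 to 108949641), did not overlap either, with 60.1 as its highest induced and 66.5 as its lowest other library. It was called for skip1 (-0.99, SE 0.22, adjusted p = 0.00461) and dN90 (-0.83, SE 0.26, adjusted p = 0.0265), and its skip2 difference of -0.53 turned to 0.07 with equal totals. Uqcr10, a small supernumerary subunit, had the largest dN90 difference of the complex (-1.94, SE 0.37, adjusted p = 0.000626). For skip2 the called genes were Uqcr11 (-1.21, SE 0.39, adjusted p = 0.04) and the hinge protein gene Uqcrh (-1.04, SE 0.34, adjusted p = 0.044). Cyc1, cytochrome c1, was called for dN90 alone of the 3 comparisons (-0.88, SE 0.25, adjusted p = 0.0135), with -0.54 and -0.71 in the others.

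Complex IV, cytochrome c oxidase, had 12 genes, of which 10 were called lower for dN90 (median -1.09), 5 for skip1 (-0.66) and 3 for skip2 (-0.95). Cox5a stood at 75.9 and 61.5 in wild type, 54.3, 46.02 and 53.3 in skip1 alone, 69.4 and 60.4 in skip2 alone, 38.7, 33.3, 32.5, 24.4 and 26.6 in skip1 induced, 30.3 and 20.3 in skip2 induced and 43.3, 20.4, 31.4 and 27.8 in dN90 induced libraries. Cox5a, a subunit on the matrix side (chromosome 9, 57517328 to 57532427), had no overlap between induced and other libraries and was called in all 3 comparisons, with -0.72 (SE 0.23, adjusted p = 0.0406), -1.35 (SE 0.32, adjusted p = 0.00595) and -1.18 (SE 0.27, adjusted p = 0.00346). Cox6c stood at 87.2 and 83.1 in wild type, 52.6, 64.4 and 90.6 in skip1 alone, 84.4 and 60.4 in skip2 alone, 23.7, 51.8, 48.3, 30.7 and 23.4 in skip1 induced, 25.7 and 29.8 in skip2 induced and 26.7, 20.4, 30.1 and 20.9 in dN90 induced libraries. Cox6c (chromosome 15, 35931976 to 35938246) was called in all 3 as well, with -0.98 (SE 0.27, adjusted p = 0.0161), -1.34 (SE 0.37, adjusted p = 0.0164) and -1.77 (SE 0.32, adjusted p = 0.000312), and its groups came close at 51.8 and 52.6. Cox6a1, the subunit 6a isoform known from liver, and Cox6b1, the genes whose promoters are printed above, were called for skip1 (-0.74 and -0.61) and dN90 (-1.30 and -0.99), with skip2 differences of -0.95 and -0.79 that did not pass. Cox8a was called for skip1 (-0.70, SE 0.21, adjusted p = 0.0288) and dN90 (-0.88, SE 0.25, adjusted p = 0.015), with 1 skip1 induced library, replicate 2 at 105, apart from the rest of its group.

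Several complex IV genes moved less or in fewer groups. Cox4i1, the ubiquitous isoform of subunit 4, was called for dN90 (-0.86, SE 0.24, adjusted p = 0.011), and its skip1 difference of -0.34 became 0.13 with equal totals. Ndufa4 stood at 130.3 and 153 in wild type, 112, 110.5 and 100.2 in skip1 alone, 102 and 86.5 in skip2 alone, 82.8, 91.6, 130.03, 67.7 and 87.3 in skip1 induced, 80.5 and 77.4 in skip2 induced and 87.3, 46.9, 61.5 and 52.7 in dN90 induced libraries. It was called for dN90 (-1.21, SE 0.26, adjusted p = 0.00157), while its skip1 and skip2 differences of -0.26 and -0.25 turned to 0.22 and 0.35 with equal totals, and skip1 induced replicate 3, at 130.03, was close to the lower wild type library. Cox7a2l, known to join complexes III and IV into supercomplexes, was the complex IV gene nearest to 0 in each comparison (-0.14, 0.14 and -0.26), and with equal totals its skip1 and dN90 differences were 0.32 and 0.21. Cox7a2, the subunit 7a isoform of liver, was called for dN90 (-1.40, SE 0.48, adjusted p = 0.0421). Ndufa4l2, a relative of Ndufa4, was among the 19 rows below the mean of 10, and the muscle isoform genes Cox6a2, Cox7a1 and Cox8b and the isoform Cox4i2 were not analysed here.

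Complex V makes ATP. Of 16 genes, 12 were called lower for dN90 (median -1.11), 6 for skip1 (-0.64) and 6 for skip2 (-0.85). Atp5a1 stood at 607 and 624 in wild type, 579, 593 and 664 in skip1 alone, 591 and 621 in skip2 alone, 340, 477, 249, 279 and 295 in skip1 induced, 331 and 356 in skip2 induced and 349, 281, 296 and 284 in dN90 induced libraries. Atp5a1, the alpha subunit of the catalytic head, had no overlap, its highest induced library being skip1 induced replicate 2. Its differences were -0.93 (SE 0.19, adjusted p = 0.00267), -0.82 (SE 0.27, adjusted p = 0.0409) and -1.03 (SE 0.23, adjusted p = 0.0025), called in all 3, and the skip2 difference turned to 0.03 under quantile normalization. Atp5b stood at 622 and 626 in wild type, 639.6, 725 and 742 in skip1 alone, 712 and 748 in skip2 alone, 468, 608, 347, 437 and 422 in skip1 induced, 498 and 564 in skip2 induced and 552, 407, 455 and 455 in dN90 induced libraries. Atp5b, the catalytic beta subunit and the member with the highest mean count, was called for skip1 (-0.64, SE 0.19, adjusted p = 0.0248) but not for skip2 (-0.46, SE 0.26, adjusted p = 0.251) or dN90 (-0.43, SE 0.22, adjusted p = 0.18), and with equal totals its skip2 and dN90 differences were 0.14 and 0.06.

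The ring and the stalk of ATP synthase held further members called in all 3 comparisons. Atp5g1 stood at 186 and 224 in wild type, 241, 194 and 201 in skip1 alone, 144 and 185 in skip2 alone, 119.8, 122, 94.1, 82.4 and 90.7 in skip1 induced, 73.8 and 77.7 in skip2 induced and 85.2, 69.6, 83.01 and 64.8 in dN90 induced libraries. Atp5g1, which encodes subunit c of the ring (chromosome 11, 96072793 to 96075694), had differences of -1.06 (SE 0.19, adjusted p = 0.000708), -1.10 (SE 0.25, adjusted p = 0.00533) and -1.43 (SE 0.22, adjusted p = 6.39e-05), and no induced library reached the lowest of the others, 144. Atp5pb stood at 103 and 90.6 in wild type, 149.7, 86.3 and 103 in skip1 alone, 117 and 102 in skip2 alone, 66.8, 74.98, 73.4, 56.9 and 59.7 in skip1 induced, 43.7 and 56.6 in skip2 induced and 59.03, 56.1, 69.03 and 58.7 in dN90 induced libraries. Atp5pb, subunit b of the peripheral stalk (chromosome 3, 105942698 to 105959263), also did not overlap and differed by -0.73 (SE 0.19, adjusted p = 0.014), -1.12 (SE 0.26, adjusted p = 0.00645) and -0.67 (SE 0.23, adjusted p = 0.0401). Atp5j2, the membrane subunit f, was called for skip2 (-1.22, SE 0.33, adjusted p = 0.0147) and dN90 (-1.93, SE 0.28, adjusted p = 4.06e-05), with -0.64 for skip1. Atp5o, the OSCP subunit that ties stalk to head, was called for dN90 (-1.48, SE 0.34, adjusted p = 0.00282), with -0.64 and -0.41 in the others. Atp5g2, a second gene for subunit c, did not pass in any comparison, at 0.03, 0.33 and -0.26, and its skip2 value was the highest of all members.

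**Figure D3:**
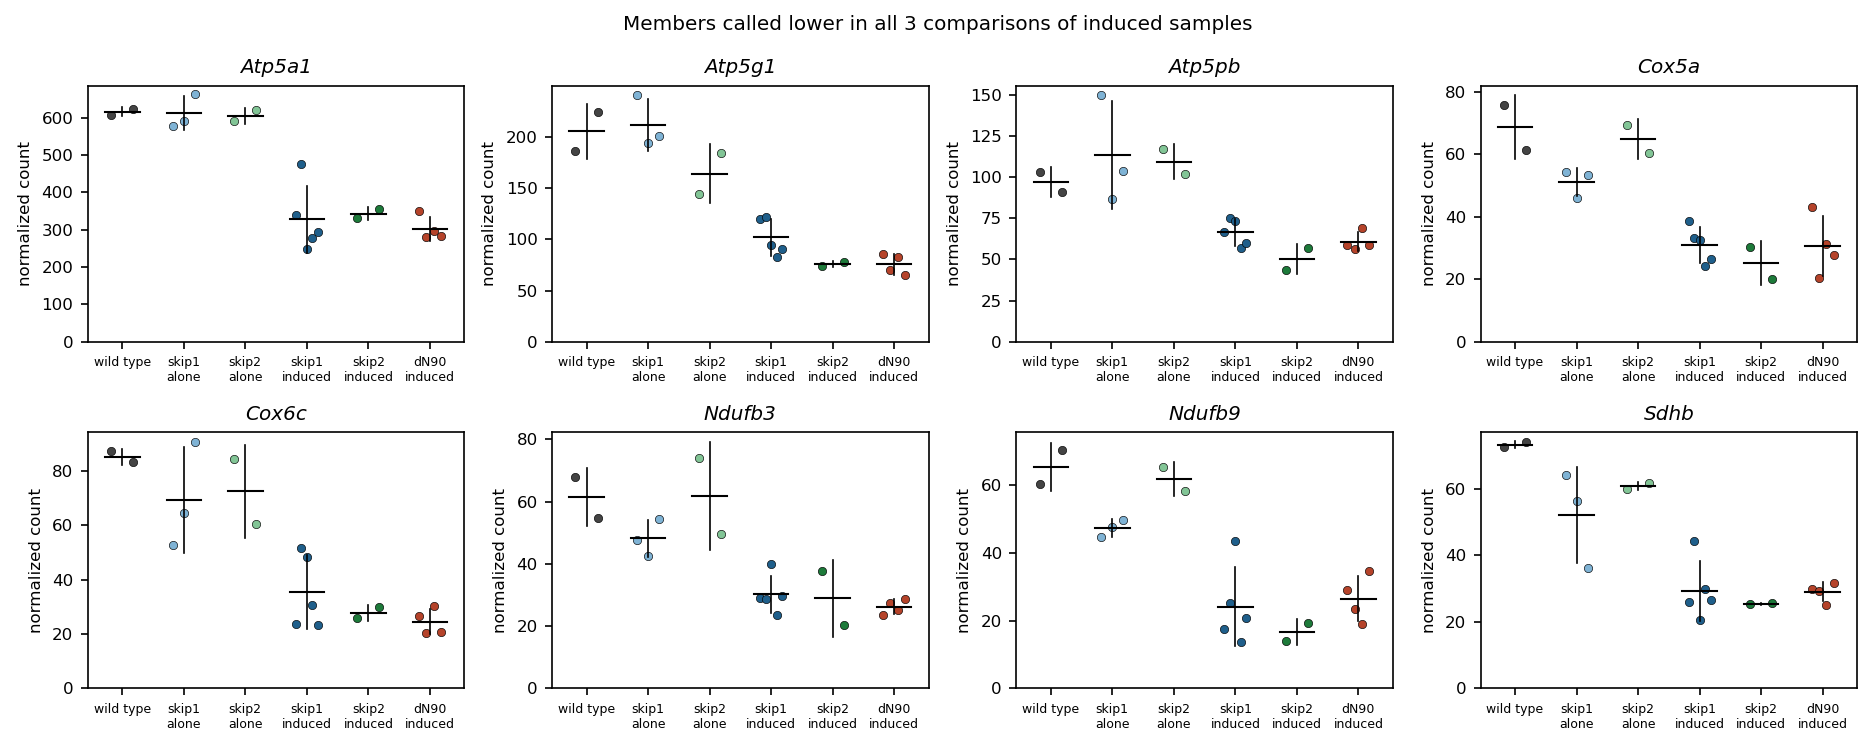
Normalized counts by library of the 8 members called lower in all 3 comparisons, a set that was not counted over all genes. Points are libraries, the horizontal line is the group mean and the vertical line ± 1 SD. In Sdhb 1 induced library at 44.4 stands above 1 skip1 alone library at 36.3, and in the other panels no induced library lies above one that was not induced.

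The proportions of the genes for subunit c differed between groups. Atp5g1, Atp5g2 and Atp5g3 encode the same mature protein, so reads could be split among them uncertainly, and these shares, of normalized counts and not per length, were chosen after their values had been seen and carry no test. A ratio within a library does not depend on how libraries are scaled. Atp5g2 made up 10.9 to 11.9% of the sum of the 3 genes in wild type, 4.97 to 10.3% in skip1 alone and 6.42 to 12% in skip2 alone libraries. It made up 11.7 to 18.7% in skip1 induced, 18.8 to 20.8% in skip2 induced and 16.5 to 24.4% in dN90 induced libraries. The skip2 and dN90 induced libraries lay above all 7 that were not induced, while the skip1 induced range overlapped theirs. The share of Atp5g1 went from 54.9 ± 1.03% (SD, n = 2) in wild type to 44.4 ± 6.23% (n = 4) with dN90, and the share of Atp5g3 was 33.7 ± 0.37% and 34.8 ± 6.09%.

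**Figure D4:**
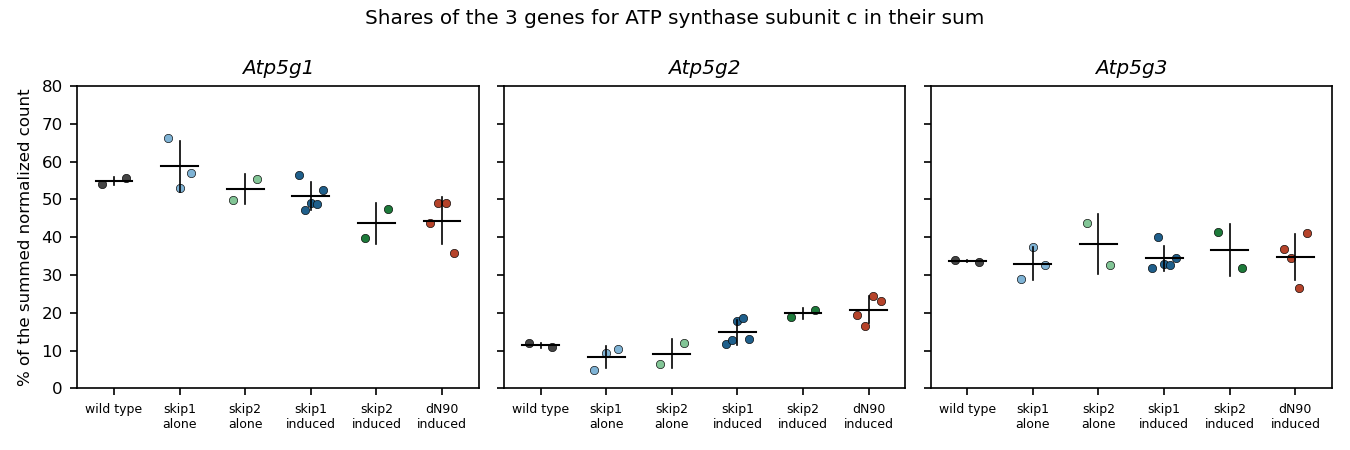
Share of each of the 3 genes for ATP synthase subunit c in their summed normalized count, by library. Points are libraries, lines are the group mean and ± 1 SD. The Atp5g2 share is 16.5 to 24.4% in skip2 and dN90 induced libraries and 4.97 to 12% in the 7 libraries that were not induced.

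Across complexes, the members called lower in all 3 comparisons were Atp5a1, Atp5g1, Atp5pb, Cox5a, Cox6c, Ndufb3, Ndufb9 and Sdhb, and 55 of 73 were called in at least 1. Of the 18 called in none, 17 had a mean under 50. These sets were counted over members only, so no share of all genes stands beside them. Of the 21 members with a mean of at least 50, 13, 4 and 19 were called lower for skip1, skip2 and dN90, where 20.8%, 20.3% and 23.6% of all 1679 genes of that level were. Within a comparison, all induced libraries lay below all controls for 27, 64 and 62 of 73 members in skip1, skip2 and dN90, beside 10.7%, 32.6% and 23.6% of all genes. All 11 induced libraries lay below all 7 others for 20 of 73 members (27.4%), where 354 of 6592 genes (5.37%) did so, and for no member above them, where 205 genes (3.11%) did. When each value was taken as a share of its library's total, no member kept the groups apart, beside 1.53% of genes that were lower and 10.6% that were higher in all induced libraries.

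Few members were called between the kinds of induced samples. Between skip1 and skip2 induced libraries, no member was called, where 3.53% of all genes were. An unadjusted p under 0.05 was found for 3 of 73 members, beside 1106 of 6592 genes. The median difference was 0.23 with 56 of 73 members higher in skip1, and the smallest p was that of Ndufa3 (1.03, 95% interval 0.29 to 1.78, adjusted p = 0.112). Against dN90 induced libraries, skip1 induced libraries had 2 members called higher of 73, where 4.63% of all genes were called and 3.17% higher. They were Cox7b, a complex IV subunit (0.90, SE 0.24, adjusted p = 0.0341), and Atp5j2 (0.80, SE 0.22, adjusted p = 0.0386). Cox7b stood at 53.2 and 53.2 in wild type, 42.8, 28.8 and 43.7 in skip1 alone, 46.2 and 37.1 in skip2 alone, 23.7, 24.98, 28.8, 16.2 and 27.7 in skip1 induced, 14.3 and 23.2 in skip2 induced and 19.7, 13.3, 8.78 and 9.93 in dN90 induced libraries. All 5 skip1 induced libraries except replicate 4 were above every dN90 induced library. Atp5j2 stood at 44.2 and 39.9 in wild type, 27.95, 33.4 and 27.7 in skip1 alone, 26.6 and 42.6 in skip2 alone, 18.3, 17.6, 24.1, 13.5 and 21.3 in skip1 induced, 12.4 and 15.5 in skip2 induced and 10.2, 11.2, 7.53 and 12.9 in dN90 induced libraries. In Atp5j2 no dN90 induced library reached a skip1 induced one, and it was the 1 member of 73 without overlap in this direction, beside 3.85% of all genes. These 2 calls were lost without skip1 induced replicate 1, 2 or 3 or without dN90 induced replicate 2 or 3. Without skip1 induced replicate 5 or dN90 induced replicate 4 there was 1 call, and without skip1 induced replicate 4 there were 5. Between skip2 and dN90 induced libraries no member was called, where 3.03% of all genes were. An unadjusted p under 0.05 was found for 2 of 73 members, beside 852 of 6592 genes.

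The change from control to induced was also compared between isoforms. The skip1 and skip2 changes started from the same isoform alone, and the dN90 change from wild type. Differences with dN90 therefore also hold the difference of skip1 or skip2 alone from wild type. Its member medians were -0.21 and -0.22, and its part was not tested. No member was called in any of the 3 differences of changes by limma, where 0.167% (skip1 and skip2), 1.08% (skip1 and dN90) and 0.0607% (skip2 and dN90) of all genes were. In the same order, 1, 7 and 5 of 73 members had an unadjusted p under 0.05, beside 662, 692 and 608 of 6592 genes. For skip1 minus dN90 the median was 0.43 with 63 of 73 above 0, and the smallest p was that of Atp5j2 (1.29, SE 0.37, adjusted p = 0.112). The counts of called members were not themselves tested against each other.

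Without induction the isoforms left no called member. Skip1 alone against wild type gave 0 of 73 by limma, where 0% of all genes were called. Here 1 member had an unadjusted p under 0.05, beside 272 of 6592 genes. Skip2 alone against wild type gave 0, where 0.0152% of all genes (1 gene) were called. Again 1 member had an unadjusted p under 0.05, beside 330 of 6592 genes. All skip1 alone libraries lay below both wild type libraries for 20 of 73 members (27.4%), beside 536 of 6592 genes. They lay above both for 3 members, beside 639 genes. For skip2 alone these counts were 30 members (41.1%) beside 975 genes below, and 3 beside 1365 above. In both comparisons, 56 of 73 members had a negative difference, with medians of -0.21 and -0.22 beside 0.01 and 0.03 for all genes. Both comparisons share the 2 wild type libraries. The member with the smallest p in both was the pseudogene Ndufs5-ps, at 30.6 and 20.7 in wild type, 13.2, 16.1 and 8.54 in skip1 alone and 12.7 and 11.01 in skip2 alone libraries, whose reads cannot be told from those of Ndufs5 with certainty.

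Other mitochondrial genes were taken from lists, and their calls stand beside the 8.18%, 8.42% and 12% of all genes called lower for skip1, skip2 and dN90. In the same order 432, 430 and 711 of the 6592 genes were called higher. Of 18 genes of the citric acid cycle and pyruvate dehydrogenase, 8, 3 and 8 were called lower for skip1, skip2 and dN90, and 1, Idh2, was called higher in each. Idh2 stood at 58.9 and 54.9 in wild type, 62.5, 60.98 and 82.05 in skip1 alone, 70.5 and 76.9 in skip2 alone, 161, 143, 124, 149 and 156 in skip1 induced, 198 and 258 in skip2 induced and 203, 193, 193 and 219 in dN90 induced libraries. Idh2, the mitochondrial NADP-dependent isocitrate dehydrogenase, was higher in all 11 induced libraries than in the 7 others, as were 205 of 6592 genes (3.11%). Its differences were 1.10 (SE 0.17, limma adjusted p = 0.000214), 1.61 and 1.81. Suclg1, of succinyl-CoA ligase, was called lower for skip1 (-1.11) and dN90 (-1.34), and with equal totals stood at -0.64 and -0.87. The list's median was -0.57, -0.52 and -0.69, and -0.10, 0.07 and -0.21 with equal totals, so for skip2 it turned.

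Genes that regulate or feed the chain included some called higher, beside the 432, 430 and 711 of 6592 genes called higher for skip1, skip2 and dN90. Atpif1 stood at 6.8 and 3.32 in wild type, 8.22, 9.2 and 6.39 in skip1 alone, 3.47 and 9.61 in skip2 alone, 16.1, 15.7, 26.01, 20.8 and 15.97 in skip1 induced, 22.5 and 16.7 in skip2 induced and 13.4, 20.4, 13.8 and 16.9 in dN90 induced libraries. Atpif1, the inhibitor that blocks ATP hydrolysis by complex V, was higher in every induced library than in any other, as were 3.11% of all genes. It differed by 1.14 (SE 0.32, limma adjusted p = 0.0189) for skip1, 1.57 for skip2 and 1.54 for dN90. Ucp2, an uncoupling protein of the inner membrane known from macrophages more than hepatocytes, was higher by 0.93, 1.57 and 1.09, all called, in libraries whose macrophage marker sum was 319 to 671 against 238 to 364. Slc25a4, an ADP/ATP carrier, was called higher for skip2 (1.93) and dN90 (2.24). Lrpprc, which stabilises mitochondrial mRNAs, was called lower for skip1 (-1.11) and dN90 (-1.29), and Etfdh, which passes electrons of fatty acid oxidation to coenzyme Q, for dN90 (-1.50). Cycs, cytochrome c, was called for dN90 (-1.29), and Coq9, needed for coenzyme Q synthesis, for skip1 (-0.72) and dN90 (-0.99). Tfam, the factor that packages mitochondrial DNA, was called lower for skip1 (-0.82). With equal totals these differences were smaller, at -0.64 and -0.81 for Lrpprc, -1.02 for Etfdh, -0.83 for Cycs, -0.26 and -0.52 for Coq9 and -0.37 for Tfam.

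Assembly, electron entry and ribosome lists were counted in the same way. Of 9 tested complex IV assembly genes, 1, 4 and 3 were called lower for skip1, skip2 and dN90, and 1, Cox11, higher for dN90. Of 6 other complex I assembly genes, 2, Ecsit and Foxred1, were called lower for dN90. Of 9 genes of cytochrome c and coenzyme Q synthesis, 1, 0 and 2 were lower and 0, 0 and 2 higher. Of 7 other genes of electron entry, 1, 0 and 4 were lower. Of 33 mitochondrial ribosomal protein genes, 1, 2 and 3 were called lower, with medians of -0.37, -0.42 and -0.49, which became 0.08, 0.15 and -0.05 with equal totals. Of 18 genes of mitochondrial import and carriers 1, 1 and 2 were lower and 0, 1 and 1 higher, and of 7 regulators of mitochondrial biogenesis 1, 0 and 0 were lower and 0, 1 and 0 higher. Of 75 cytosolic ribosomal protein genes none was called lower and 1, 0 and 2 were called higher, with medians of 0.30, 0.22 and 0.11, and 0.77, 0.81 and 0.60 with equal totals.

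In the z-score table the respiratory chain genes stood highest in the sgActin and YAPS127A control and lowest in subtype B. The library medians over all 1659 rows had the same order. They were 1.48 to 1.73 in the control, -0.215 to -0.0722 in subtype A and -0.486 to -0.347 in subtype B. The deposited table's own name calls its rows differentially expressed genes. The name lists skip1, skip2, subtype A and subtype B, without saying which groups were compared or by which test. Z-scores of the 18 libraries with normalized counts are also in it and were not analysed here. The table held 69.9% of the members (51 of 73) beside 17.5% of the genes with a mean of at least 10. The median z-score over the 53 rows was -0.09, -0.30, -0.31 and -0.17 in the 4 subtype A libraries, between -0.67 and -0.47 in the 9 subtype B libraries, and 2.22, 1.91 and 2.06 in the control. All 9 subtype B medians lay below all 4 of subtype A. The median difference of subtype A from B was 0.34 SD over the 53 rows beside 0.19 over all 1659. With limma 51 of 53 rows were called higher in subtype A, where 61.1% of all rows were called and 40.3% higher, and for 41 of 53 (77.4%) the subtypes did not overlap, beside 577 of 1659 rows (34.8%). Because the rows had already been selected as differing, these calls repeat a selection and are given as a description, with nothing read from them. In the same comparison 3 of 6 hepatocyte markers, 3 of 3 endothelial markers and the 1 erythroid marker in the table, Alas2, were called higher and 2 of 5 biliary markers lower in subtype A, and their part in the result was not tested.

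**Figure D5:**
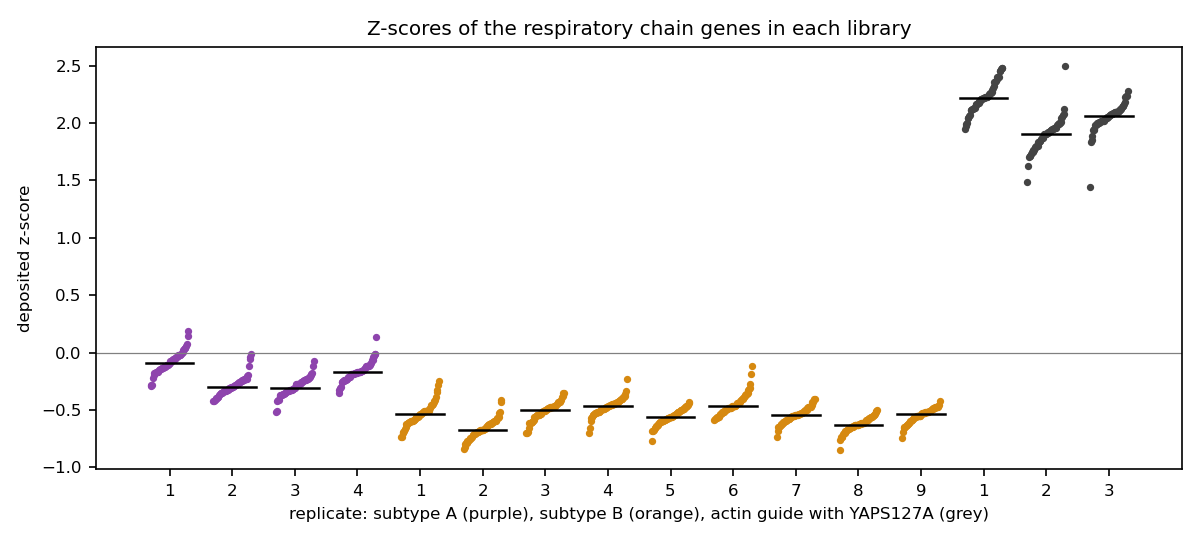
Deposited z-scores of the 53 respiratory chain rows in each library of the subtypes and of their control, sorted within a library. Each point is a gene and the black line is the library's median. The control medians lie between 1.91 and 2.22, those of subtype A between -0.31 and -0.09 and those of subtype B between -0.67 and -0.47.

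By complex, the median difference of subtype A from B was 0.33 over the 20 rows of complex I, 0.32 over the 4 of complex II, 0.35 over the 9 of complex III, 0.37 over the 9 of complex IV and 0.30 over the 11 of complex V. Uqcrq, a small complex III subunit, had z-scores of -0.106, -0.0596, -0.0708 and 0.138 in subtype A, -0.763 to -0.388 with a median of -0.654 in subtype B and 2.19, 1.83 and 2.02 in the control. It had the largest difference between the subtypes (0.57, SE 0.09) and no overlap. Atp5e, the epsilon subunit of ATP synthase, had z-scores of 0.192, -0.0398, -0.272 and -0.217 in subtype A, -0.84 to -0.417 with a median of -0.641 in subtype B and 2.11, 1.78 and 2.17 in the control. Its subtypes did not overlap either (0.52, SE 0.10), and the same held for Ndufa4 of complex IV (0.48, SE 0.11) and Sdhc of complex II (0.42, SE 0.09). The smallest difference was that of Ndufb7 (0.17, 95% interval -0.10 to 0.45), and the interval of Ndufa5 (0.24, -0.05 to 0.52) also included 0.

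Against the control, the median difference of the 53 rows was -2.28 in subtype A and -2.61 in subtype B. Over all 1659 rows it was -1.99 and -2.46. With limma all 53 were called lower in both, where 97.3% and 99.6% of all rows were called and 55.6% lower in each. A call in either direction was therefore near certain for any row of this table, though its direction was not. Because the rows had already been selected as differing, these calls are given as a description, with nothing read from them about these genes. In the same comparisons 6 of 6 hepatocyte markers (medians -2.29 and -2.59), 3 of 3 endothelial markers (-2.10 and -2.55) and Alas2 (-2.24 and -2.58) were lower and 5 of 5 biliary markers (1.86 and 2.29) higher, and their part was not tested. The differences ran from -2.37 to -2.04 for subtype A and from -2.63 to -2.54 for subtype B, while over all genes they ran from -2.68 to 2.88 and from -2.64 to 2.63. A z-score difference gives no fold, so the size of the change cannot be set beside that of the normalized counts, and the 2 sets of libraries were scaled apart and not compared.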

How the data were processed

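RNA-seq of mouse liver samples was used as deposited. The submitters' processing notes name DESeq2, FastQC, RSEM and STAR and the mm10 build, without versions. The deposited normalized counts are a signal per gene that the authors scaled per library, and the deposited z-score table holds a score per gene that the authors centred and scaled, for rows that the table's name calls differentially expressed. Within 0.001, the squares of the 16 libraries' z-scores and of 1 further library implied by them summed to 16 for all 1659 genes, and that library was not analysed here. Between 59.2 and 60.5% of values per library were whole multiples of 1 estimated read (tolerance 0.001), so depths are estimates.

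Genes with a mean of at least 10 were tested with limma 3.58.1 (R 4.3.3) on log2(normalized count + 1) with a trended prior and 1 coefficient per group over all 18 libraries, and z-scores with limma over 16 libraries. P-values were adjusted by Benjamini-Hochberg over all genes of a table. The planned design assumed log values for the subtypes, and z-scores were found. Groups came from the source labels. Replicate numbers are in accession order and pair nothing, nothing says that replicates are separate animals, and p-values then measure the spread between these samples, which may be technical. No 2 libraries held identical values. Members and lists were chosen with earlier results of these data known. Named genes were up to 3 called members per comparison, complex and direction with the largest difference, a list of core and isoform genes, up to 3 called genes per list, and the 3 members on each side of the mean of 10, and the text gives part of them. The values of 1 such gene are not reported here. Other genes named were chosen after their values were seen. Promoter sequences are from RefSeq (GRCm38.p6), and other coordinates from the mm10 gene annotation. The script was tested on simulated data. Alternatives were other pseudocounts, filters, scalings, models and samples left out.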

Additional observations from a re-analysis of the deposited data

Results flagged for a closer look

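Of 114 groups of 4 to 10 samples examined, over single members and complex sums, 3 held a sample far from the others, where chance alone gives about 1 in 20. Cox8a, a complex IV subunit, was at 105 in skip1 induced replicate 2 while the other 4 libraries of that group lay between 58.56 and 66.71 normalized counts. The same library had the highest hepatocyte marker sum of the induced libraries (61608), whose part was not tested. Sdhc, a complex II membrane anchor, was at 38.8 in dN90 induced replicate 2 while the other 3 lay between 49.55 and 51.43. Ndufb8, a complex I subunit, had a z-score of 0.0387 in subtype A replicate 1 while the other 3 lay between -0.234 and -0.188.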

How the results depend on the processing

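Counts of called members depended on the scaling and on the samples. For skip1 (24 members with the deposited scaling) the count was 11 with quantile normalization, 2 with voom on estimated reads and 2 with equal totals, the last chosen after seeing the data. For skip2 (15) it was 7 with a mean of at least 50, where 21 members are left, 7 with quantile normalization, 1 with voom and 1 with equal totals. For dN90 (53) it was 19 with a mean of at least 50, 23 with estimated depth as a covariate, 20 with voom and 18 with equal totals. For skip1 against dN90 induced samples (2) it was 1 with a pseudocount of 5, 0 with no filter, 1 with a mean of at least 50, 0 with only the compared groups, 0 with voom and 1 with equal totals. Leaving out each replicate gave 9 to 30 for skip1, 3 to 9 for skip2, 24 to 49 for dN90, 0 to 5 for skip1 against dN90 induced, 0 to 1 for skip1 against skip2 induced, 0 to 1 for the skip1 minus dN90 difference of changes and 40 to 51 for subtype A against B. The other comparisons stayed at 0, or at 53 against the subtypes' control. Single differences changed sign as follows, in the order voom, equal totals. For skip1, Ndufa4 went to 0.218 and 0.216 (quantile 0.005), Cox4i1 to 0.132 and 0.13 and Cox7a2l to 0.343 and 0.322. For skip2, Ndufa4 went to 0.349 and 0.352 (quantile 0.0449), Uqcrc1 to 0.0633 and 0.0682 and Atp5b to 0.143 and 0.144 (quantile 0.505), with Atp5a1 at 0.0348 under quantile normalization and Cox7a2l at -0.0274 with the depth covariate. For dN90, Cox7a2l went to 0.252 and 0.212 and Atp5b to 0.0606 and 0.0595 (quantile 0.176). The cause was not tested. Of the values of named members under alternatives, 1501 kept direction and side of the threshold, 254 lost and 10 gained a call, and 22 changed sign. No paired analysis was possible because replicate numbers follow accession order and the labels link no samples. With a median of 17 to 59 estimated reads per member and library, counting error adds to the spread of single members, and its share in the missing calls was not tested.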
